A study of Rattus norvegicus with 8 samples.

Results

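Bhlhe40, Bhlhe41, Maf, Klf2 and Klf4 encode 5 transcription factors that are known for their part in macrophage self-renewal. They were chosen by gene symbol from this knowledge, with earlier results of these data also known. Each matched 1 of the 23487 genes of the deposited table, and all 5 had enough counts to be among the 12124 genes tested. The measurements were made by RNA-seq on peritoneal macrophages of female Wistar rats, 4 given CNT-7 and 4 given CNT-T, which were 8 weeks old and killed 15 days after an intraperitoneal injection of equal masses of either particle. CNT-7 (MWCNT-XNRI-7) are needle-like multi-walled carbon nanotubes that cause mesothelioma in rats, and CNT-T (MWCNT-CNT-T) are tangled nanotubes that do not. The macrophages were sorted as CD11b/c-high and His48-dim cells, so that the RNA of each rat is that of a whole sorted population, and in such bulk samples fewer cells of a type and less RNA per cell cannot be told apart. Every difference below is between both particles, since no macrophages of untreated rats were analysed here.

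Most tissue macrophages are kept in number by division of mature cells rather than by renewal from monocytes. In mouse macrophages, c-MAF takes part in holding division back, and the ability of mature macrophages to multiply without losing their identity depends on MYC and KLF4. BHLHE40 and BHLHE41 (also called DEC1 and DEC2) are repressors of the basic helix-loop-helix family that bind the E-box CACGTG, take part in the circadian clock and are needed for normal division of mouse large peritoneal macrophages or for the identity of alveolar macrophages. KLF2 and KLF4 are zinc finger proteins of the Krüppel-like family, of which KLF2 restrains inflammatory activation of myeloid cells and KLF4 is required for the formation of monocytes.

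The sequence before the start of 3 of these genes is shown because the E-box is the site that the BHLHE40 and BHLHE41 proteins bind. By symbol, Bhlhe40, Bhlhe41, Maf and Klf4 matched an entry of the RefSeq promoter table (assembly GRCr8, not the Rnor_6.0 assembly of the counts), and Klf2 did not. Each run holds the 250 bases before the annotated start, 5′ to 3′ on the strand of the gene, with CACGTG in capitals. Bhlhe40 is at chr4:143174200-143174449 on the plus strand, Bhlhe41 at chr4:180569356-180569605 on the minus strand and Maf at chr19:60621357-60621606 on the minus strand.
Bhlhe40: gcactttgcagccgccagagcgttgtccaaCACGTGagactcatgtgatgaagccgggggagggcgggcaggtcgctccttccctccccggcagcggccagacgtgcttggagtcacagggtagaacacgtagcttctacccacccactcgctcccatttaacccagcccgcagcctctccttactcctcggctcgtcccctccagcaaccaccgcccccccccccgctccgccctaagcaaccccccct
Bhlhe41: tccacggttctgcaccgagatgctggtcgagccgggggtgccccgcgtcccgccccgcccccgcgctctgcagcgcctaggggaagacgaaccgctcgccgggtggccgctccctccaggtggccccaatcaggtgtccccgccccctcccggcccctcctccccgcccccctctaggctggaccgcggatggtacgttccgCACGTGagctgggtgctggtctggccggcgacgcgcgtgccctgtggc
Maf: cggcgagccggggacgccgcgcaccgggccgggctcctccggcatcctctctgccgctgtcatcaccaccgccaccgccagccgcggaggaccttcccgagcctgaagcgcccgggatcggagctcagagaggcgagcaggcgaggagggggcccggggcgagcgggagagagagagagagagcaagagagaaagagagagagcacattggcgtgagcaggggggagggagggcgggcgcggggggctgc
CACGTG reads the same on both strands. It began 220 bases before the start of Bhlhe40 and 48 bases before the start of Bhlhe41, and the window of Maf did not hold it. The window of Klf4, not shown, did not hold it either, but it may lie within transcribed sequence and so may not be the promoter. Of 33469 windows of this length before rat genes, 5.59% held CACGTG at least 1 time. A match describes the letters of the window and not a bound site.

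Each rat had 27195157 to 33732981 counts in total. Levels are given as CPM (counts per 1000000 of the library size as scaled by TMM), and means are ± SD. CPM are not divided by transcript length, so the values compare rats for 1 gene and give no order of levels between genes. A positive log2 fold change means a higher level in CNT-7 rats, and p-values come from the quasi-likelihood test of edgeR, adjusted by Benjamini-Hochberg over all 12124 genes and called under 0.10. All 12 macrophage markers were tested, of which 2 (Cd14 and Gata6) were higher and 5 (Adgre1, Cd163, Cd68, Csf1r and Fcgr1a) lower in CNT-7. Over all tested genes, 13.9% were higher and 14.0% lower. The macrophage list summed to 17167 to 23756 CPM in CNT-7 rats against 25627 to 36363 CPM in CNT-T rats. Lyz2 alone, not called, made up 12197 to 30099 CPM of it per rat.

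Of the 5 factors, 2 were higher and 1 lower in macrophages after CNT-7 than after CNT-T. Bhlhe40 and Klf4 rose (fold changes of 1.42 and 1.40), Maf fell (fold change 0.736), and Klf2 and Bhlhe41 did not pass the test. The share called was 27.9% of all tested genes, 13.9% higher and 14.0% lower. The groups of 4 rats were apart for Bhlhe40, Klf4 and Maf, against 24.9% of all tested genes (12.3% with CNT-7 above and 12.6% with CNT-7 below). These changes were moderate within the comparison, since 20.5% of all tested genes had a larger log2 fold change in size than Bhlhe40, 21.3% than Klf4 and 23.5% than Maf.

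**Figure D1:**
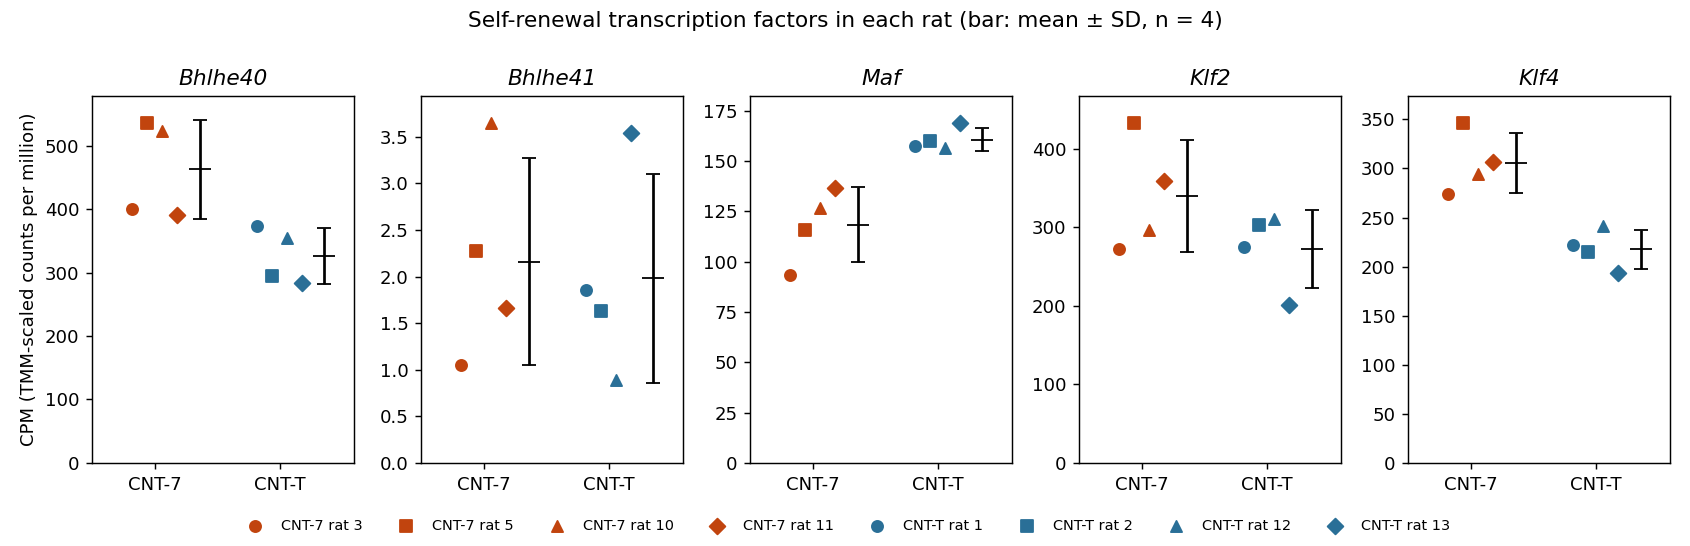
CPM of the 5 transcription factors (y axis, from 0, a scale for each gene) in the 4 CNT-7 and the 4 CNT-T rats, 1 symbol per rat, with the mean and SD of each group as a black bar. All CNT-7 rats sit above all CNT-T rats for Bhlhe40 and Klf4 and below them for Maf, and the groups overlap for Bhlhe41 and Klf2.

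Maf (ENSRNOG00000012428) encodes c-MAF, the basic leucine zipper factor that restrains macrophage division. It had 93.4, 116, 127 and 137 CPM in CNT-7 rats 3, 5, 10 and 11, and 157, 160, 156 and 169 CPM in CNT-T rats 1, 2, 12 and 13. The CNT-T rats were close together, whereas the CNT-7 rats were spread out below them, with rat 3 the lowest of all. The mean was 118 ± 18.6 CPM in the CNT-7 group against 161 ± 5.63 CPM in the CNT-T group (n = 4 each), and the coefficient of variation was 15.8% after CNT-7 and 3.51% after CNT-T. The log2 fold change was -0.44 (standard error 0.11, 95% interval -0.69 to -0.20, edgeR's adjusted p = 0.0188). Without CNT-7 rat 3 it was -0.34 (edgeR's adjusted p = 0.0231), and Maf was called in all 8 fits that left out 1 rat.

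Bhlhe40 (ENSRNOG00000007152) encodes the E-box repressor DEC1. It had 401, 536, 523 and 391 CPM in CNT-7 rats 3, 5, 10 and 11, and 373, 294, 354 and 283 CPM in CNT-T rats 1, 2, 12 and 13. Rats 5 and 10 stood above the other CNT-7 rats, and the lowest CNT-7 rat, rat 11, was only just above the highest CNT-T rat, rat 1. The mean was 463 ± 77.5 CPM in the CNT-7 group against 326 ± 44.1 CPM in the CNT-T group (n = 4 each), a log2 fold change of 0.51 (standard error 0.14, 95% interval 0.20 to 0.81, edgeR's adjusted p = 0.0271). Leaving out 1 rat at a time gave log2 fold changes of 0.43 to 0.58 and adjusted p-values of 0.0166 to 0.0786 (edgeR).

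Its paralog Bhlhe41 (ENSRNOG00000048961), which encodes DEC2, was scarce in these macrophages. It had 1.05, 2.28, 3.65 and 1.67 CPM in CNT-7 rats 3, 5, 10 and 11, and 1.86, 1.63, 0.89 and 3.54 CPM in CNT-T rats 1, 2, 12 and 13. High and low rats were found in both groups, and the ranges covered each other almost fully. These levels rest on 27 to 101 counts per rat, and the lowest count, 27 in CNT-T rat 12, has an exact 95% Poisson interval of 17.8 to 39.3 counts, which covers counting error only. The mean was 2.16 ± 1.11 CPM in the CNT-7 group against 1.98 ± 1.12 CPM in the CNT-T group (n = 4 each). The log2 fold change was 0.13 (standard error 0.46, edgeR's adjusted p = 0.876), and its 95% interval, -0.91 to 1.16, includes changes of about the size of those of Bhlhe40 and Maf in either direction. Its sign turned without CNT-7 rat 10 (-0.24) and without CNT-T rat 12 (-0.12). The spread between rats was wide for this gene, with a biological coefficient of variation of 45.2%, against a median of 13.4% over the tested genes.

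Klf4 (ENSRNOG00000016299) encodes the Krüppel-like factor that monocyte formation requires. It had 274, 346, 295 and 307 CPM in CNT-7 rats 3, 5, 10 and 11, and 222, 215, 241 and 193 CPM in CNT-T rats 1, 2, 12 and 13. Every CNT-7 rat was above every CNT-T rat, with rat 5 at the top and CNT-T rat 13 at the bottom. The mean was 305 ± 30.4 CPM in the CNT-7 group against 218 ± 19.8 CPM in the CNT-T group (n = 4 each). Its log2 fold change of 0.49 had the smallest standard error of the 5 factors (0.095, 95% interval 0.27 to 0.70, edgeR's adjusted p = 0.00674), and it stayed between 0.42 and 0.54 when 1 rat at a time was left out.

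Klf2 (ENSRNOG00000014205), whose product restrains inflammatory activation, had 272, 433, 296 and 359 CPM in CNT-7 rats 3, 5, 10 and 11, and 275, 303, 310 and 201 CPM in CNT-T rats 1, 2, 12 and 13. CNT-7 rats 5 and 11 were above all CNT-T rats, but rats 3 and 10 lay among them, and CNT-T rat 13 was the lowest. The mean was 340.0 ± 71.8 CPM in the CNT-7 group against 272 ± 49.8 CPM in the CNT-T group (n = 4 each), a log2 fold change of 0.32 (standard error 0.17, 95% interval -0.065 to 0.71, edgeR's adjusted p = 0.23). Without CNT-7 rat 5 it was 0.18, and without CNT-T rat 13 it was 0.20. The ratio of Klf2 to Klf4 CPM was 1.10 ± 0.13 after CNT-7 and 1.24 ± 0.15 after CNT-T, and the groups overlapped. Whether the changes of Klf2 and Klf4 differ was not tested.

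Bhlhe40, Klf2 and Klf4 were each highest in CNT-7 rat 5 and lowest in CNT-T rat 13, the rat with the highest level of Maf. Over the 8 rats, the root mean square difference between 2 genes in log2 CPM, each centred on its own mean, was 0.14 between Bhlhe40 and Klf4, 0.17 between Klf2 and Klf4 and 0.26 between Bhlhe40 and Klf2. This distance includes the difference between the groups and is a description. It was 0.47 to 0.53 between Maf and each of these genes and 0.66 to 0.79 between Bhlhe41 and each of the other factors. For comparison, the median distance to 11104 tested genes with a mean of at least 1 CPM was 0.33 for Klf4 and Maf. It was 0.36 for Bhlhe40 and Klf2. For Bhlhe41 it was 0.69, so the distances of Bhlhe41 to the other factors were near its median to all these genes. The ratio of Bhlhe40 to Maf CPM was 3.98 ± 0.77 after CNT-7 and 2.04 ± 0.33 after CNT-T, and that of Klf4 to Maf was 2.62 ± 0.39 and 1.36 ± 0.17.

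**Figure D2:**
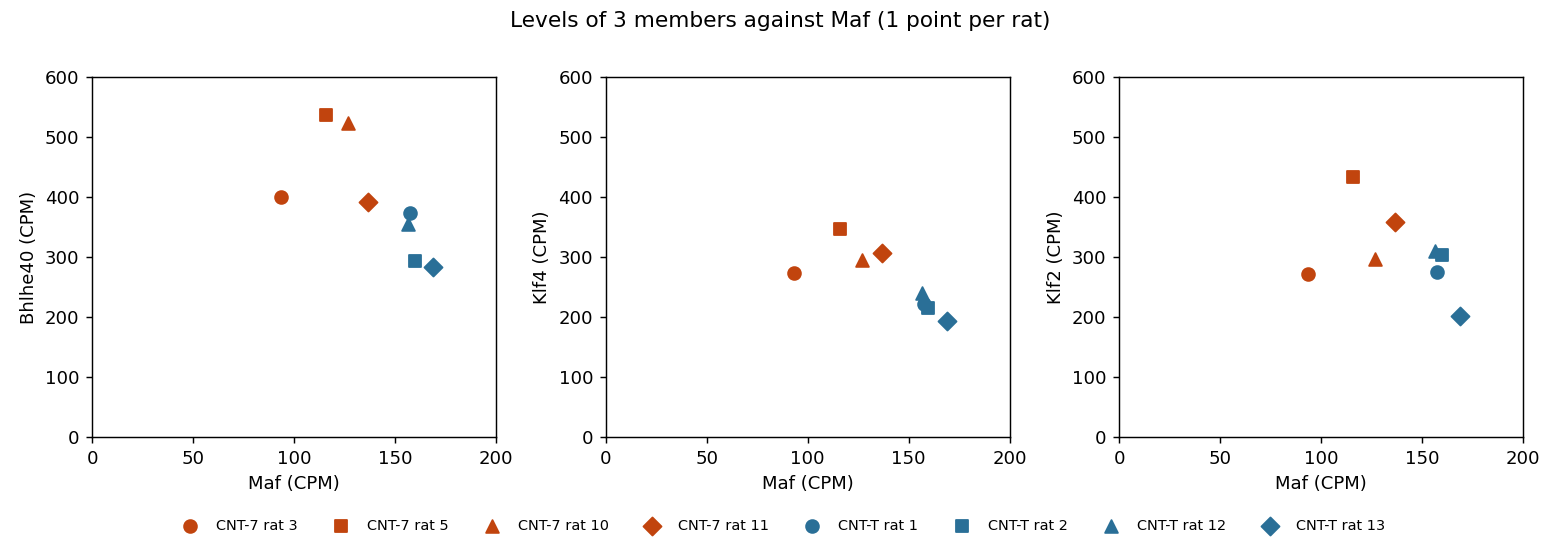
CPM of Bhlhe40, Klf4 and Klf2 (y axes) against CPM of Maf (x axis), 1 symbol per rat, CNT-7 in orange and CNT-T in blue. The CNT-T rats sit close together near 160 CPM of Maf, and the CNT-7 rats lie to their left between 93.4 and 137 CPM.

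The genes whose pattern over the 8 rats was most like that of each factor were found by the same distance. Those of Bhlhe40 were Kdm4b (0.075), Ccdc88b (0.084) and Vasp (0.088), of which Kdm4b encodes a histone demethylase and Vasp a regulator of actin filaments. Those of Klf4 were Rimbp2 (0.053), Khnyn (0.067) and Med25 (0.079), a subunit of the Mediator complex. Nearest to Maf were AABR07065602.1 (0.090), Eml2 (0.092) and Arsb (0.093), the lysosomal arylsulfatase B. Nearest to Klf2 were LOC690000 (0.13), the complement gene C2 (0.14) and Rogdi (0.14). The pattern of Bhlhe41 had no gene as close, the nearest being Creg1 (0.21), AABR07054319.1 (0.31) and Slc48a1 (0.37), a heme transporter.

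Other cell types that express these factors could be present in a sorted population, and their markers were therefore measured. The 8 T cell markers summed to 3.66 to 14.9 CPM in CNT-7 rats against 3.81 to 4.60 CPM in CNT-T rats, with no marker at 0 in all rats. Of these markers only Lck was abundant enough to be tested, and it was not called. The highest sum was that of CNT-7 rat 5, in which Cd3e was at 2.11 CPM. Without CNT-7 rat 5, Bhlhe40 had a log2 fold change of 0.43 (edgeR's adjusted p = 0.0772), Klf4 of 0.42 (0.0191) and Maf of -0.43 (0.0502). Of the 7 endothelial markers measured, Emcn and Cldn5 were at 0 in all 8 rats, and 3 were tested, of which 1 was lower in CNT-7. The endothelial list, mostly Tie1, summed to 167 to 183 CPM in CNT-7 rats against 163 to 200.05 CPM in CNT-T rats. Of 10 neutrophil markers, with Mpo at 0 in all rats, 5 were tested, of which 1 was lower in CNT-7. The 10 summed to 33.9 to 63.0 CPM in CNT-7 rats against 26.3 to 68.5 CPM in CNT-T rats. Of 7 dendritic cell markers, none at 0 in all rats, 4 were tested, of which 3 were higher in CNT-7. The 7 summed to between 13.4 and 19.1 CPM in CNT-7 rats and between 7.34 and 15.7 CPM in CNT-T rats. Over all tested genes, 13.9% were higher and 14.0% lower. Of 6 monocyte markers in the table, none at 0 in all rats, 5 were tested, of which 1 was higher and 3 lower in CNT-7. Their sum of 2694 to 3392 CPM in CNT-7 rats against 3560 to 3593 CPM in CNT-T rats was mostly Plac8 and Vcan. The higher gene was Cx3cr1, with 40.0 to 144 CPM in CNT-7 rats against 3.29 to 6.77 CPM in CNT-T rats (log2 fold change 4.12, edgeR's adjusted p = 0.000592). B cell, eosinophil, mast cell, mesothelial and fibroblast markers summed to less than 10 CPM in every rat, with the eosinophil genes Prg3 and Epx at 0 in all 8. The eosinophil sum was 9.33 CPM in CNT-7 rat 3, the rat with the lowest Maf, and at most 0.67 CPM in the other rats, and it was mostly Ccr3 (8.74 CPM in rat 3). As given above, Maf was also called without this rat. The part of these cells in the changes of the 5 factors was not tested.

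In the families of MAF and MYC, Myc, the driver of growth and division, did not pass the test. It had 101 ± 18.8 CPM in the CNT-7 group against 102 ± 9.81 CPM in the CNT-T group (log2 fold change -0.0086, 95% interval -0.30 to 0.28). Of 17 genes of this list, 13 were tested, of which 3 were higher, 2 lower and 8 not called. Over all tested genes, 13.9% were higher and 14.0% lower. The median log2 fold change was 0.061 for the list and 0.0083 for all tested genes. Higher were Mxd4 (log2 fold change 0.47, edgeR's adjusted p = 0.0208) and Mxi1 (0.44, adjusted p = 0.0218), whose products compete with MYC for its partner MAX, and Mafk (0.36, adjusted p = 0.0287), a small MAF protein. Lower were Maff, another small MAF (-0.89, edgeR's adjusted p = 0.0728), and Mlx, a relative of MAX (-0.16, adjusted p = 0.0932). The calls of Maff and Mlx were lost in most fits that left out 1 rat, and were kept in 3 and 1 of 8.

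Among the other Krüppel-like factors, 10 of 15 were tested, of which 2 were higher, 1 lower and 7 not called, with a median log2 fold change of -0.025. Klf6, an injury-responsive factor, had 68.4 ± 10.7 CPM in the CNT-7 group against 44.1 ± 5.84 CPM in the CNT-T group (log2 fold change 0.63, standard error 0.12, edgeR's adjusted p = 0.00692). Klf3, a repressor, had 242 ± 19.9 and 182 ± 22.5 CPM (0.41, standard error 0.10, adjusted p = 0.0173). Klf9, which glucocorticoids induce, had 23.3 to 27.9 CPM in CNT-7 rats and 28.7 to 42.2 CPM in CNT-T rats and was the member of the family that fell (-0.47, standard error 0.13, adjusted p = 0.0279). The groups were apart for these 3 genes, as for 24.9% of all tested genes. Klf1, Klf5, Klf14, Klf15 and Klf17 were too low to be tested.

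**Figure D3:**
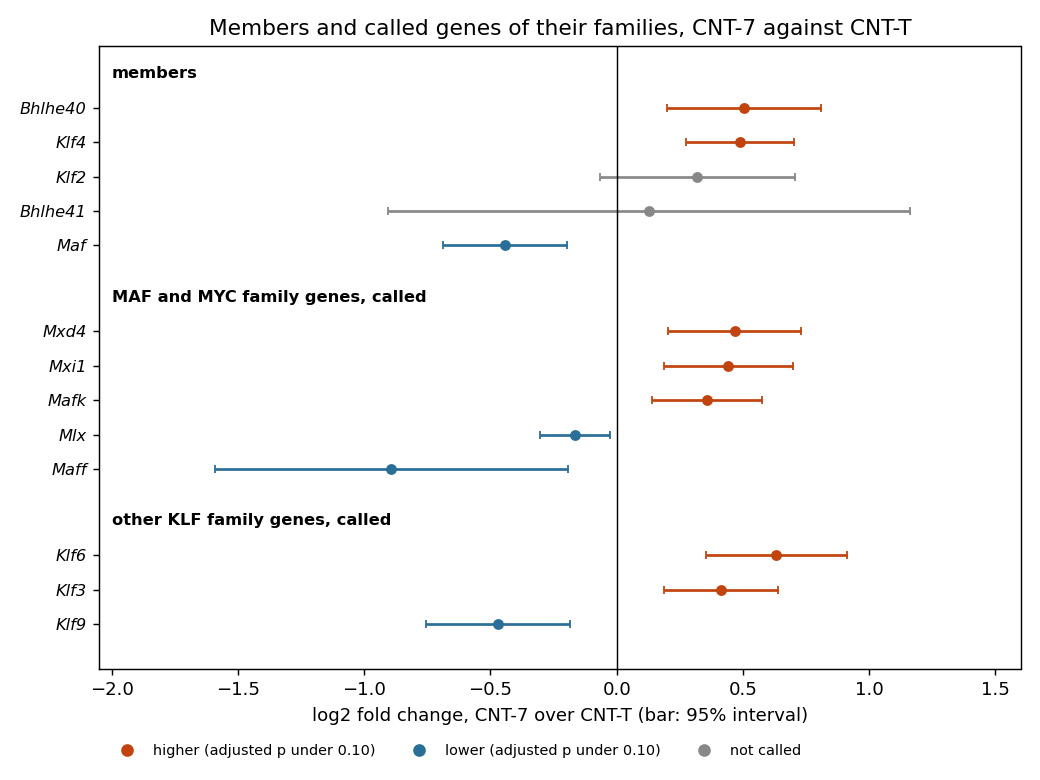
Log2 ratio of the CNT-7 to the CNT-T level (x axis) with its 95% interval for the 5 factors, the 5 called MAF and MYC family genes and the 3 called genes among the other KLF family members, coloured by call at an adjusted p under 0.10. Bhlhe40 and Klf4 lie near 0.5 and Maf near -0.44, while the intervals of Klf2 and Bhlhe41 span 0 and that of Bhlhe41 is wide.

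Genes that c-MAF is associated with in tissue macrophages were lower after CNT-7 where they passed the test. Of 12 such genes, 10 were tested, of which 5 were lower, 0 higher and 5 not called. Over all tested genes, 14.0% were lower and 13.9% higher. The count of higher genes of the list was also 0 at an unadjusted p under 0.05 with edgeR, and 0 by DESeq2. The median log2 fold change was -0.67 for the list and 0.0083 for all tested genes. Csf1r, Cd163, C1qa and Mrc1 are also among the macrophage markers counted above, so both counts share these genes. F13a1, the coagulation factor XIII A chain, had a log2 fold change of -2.15 (edgeR's adjusted p = 0.000391), and Cd163, the haptoglobin-hemoglobin scavenger receptor, of -1.69. The complement genes C1qb and C1qc had -0.86 and -1.10 (adjusted p = 0.0216 and 0.0266), whereas C1qa (-0.47) was not called. Csf1r, the receptor for M-CSF, had 1220 ± 68.2 CPM in the CNT-7 group against 1531 ± 143 CPM in the CNT-T group (-0.33, adjusted p = 0.0274). Folr2 (0.065), Lyve1 (-0.028) and Mrc1 (0.58) were not called. Il10, whose promoter c-MAF binds, was too low to be tested, with at most 11 counts in a rat.

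Genes associated with KLF2 and KLF4 were found on both sides. Of 9, 8 were tested, of which 3 were higher, 2 lower and 3 not called, with a median log2 fold change of 0.13. Among all tested genes, 13.9% were higher and 14.0% lower. Cdkn1a, the cell cycle inhibitor p21, had 77.6, 98.3, 69.98 and 134 CPM in CNT-7 rats 3, 5, 10 and 11 against 24.5 ± 5.25 CPM in the CNT-T group (log2 fold change 1.95, standard error 0.23, edgeR's adjusted p = 0.000635). Cd14, the co-receptor for lipopolysaccharide, rose from 199.9 ± 20.6 to 275 ± 20.7 CPM (0.46, adjusted p = 0.00713), and Arg1, arginase 1, from 1.55 ± 0.92 to 14.2 ± 13.9 CPM (3.20, adjusted p = 0.00955), with CNT-7 rat 10 at 34.5 CPM. Without CNT-7 rat 10, the log2 fold change of Arg1 was 2.25. Thbd, which encodes thrombomodulin, was lower, with 140 ± 69.5 CPM in the CNT-7 group against 540 ± 73.0 CPM in the CNT-T group (-1.95, adjusted p = 0.00254). Of the genes for the kinases and MEF2 factors that act upstream of KLF2 and KLF4 in other cells, 8 were tested, of which 1 was higher and 1 lower. Mapk7, which encodes ERK5, had a log2 fold change of 0.059 (standard error 0.12), Mef2c fell by 0.85 on the log2 scale (adjusted p = 0.00337), and the call of Mef2b (1.53) rests on at most 14 counts per rat.

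Genes of the division machinery were mostly lower after CNT-7. Of 15 tested of 16, 13 were lower, 1 higher and 1 not called, against 14.0% lower and 13.9% higher over all tested genes. The median log2 fold change was -1.13 for the list and 0.0083 for all tested genes. Mki67, the antigen Ki-67, had 79.7 to 191 CPM in the CNT-7 rats and 363 to 402 CPM in the CNT-T rats. Ccnd1, which encodes cyclin D1, had 353 ± 49.9 CPM in the CNT-7 group against 718 ± 81.8 CPM in the CNT-T group (log2 fold change -1.03, standard error 0.12, edgeR's adjusted p = 0.000703), and Top2a (-1.68) and Birc5 (-1.13) also fell. Ccnd2 (0.38, edgeR's adjusted p = 0.0563) was the gene of the list that rose, and Ccnd3 was not called (0.054). Within the CNT-7 group, rat 11 had the highest levels of Mki67 and of Maf, whereas for the lowest level the rats differed, rat 10 for Mki67 and rat 3 for Maf.

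Immediate early genes, which answer within minutes to growth factors, stress and cell handling and to which Klf2 and Klf4 also belong in many cells, were mostly higher after CNT-7. All 16 of the list were tested, of which 12 were higher, 1 lower and 3 not called, with a median log2 fold change of 0.94. Higher and lower genes made up 13.9% and 14.0% of all tested genes. Fos had 21.2, 51.8, 28.6 and 22.5 CPM in CNT-7 rats 3, 5, 10 and 11, and between 5.51 and 7.24 CPM in the CNT-T rats (log2 fold change 2.28, standard error 0.28, edgeR's adjusted p = 0.00078). CNT-7 rat 5 was the highest for Fos, as for Bhlhe40, Klf2 and Klf4, and CNT-T rat 13 the lowest. Other genes of the list had another order in the CNT-T group, in which rat 13 was the highest for Jun (21.9 CPM) and rat 12 the lowest for Atf3 and Jund. Atf3 (1.69, edgeR's adjusted p = 0.000366) and Jund (1.41, adjusted p = 0.000652) rose as well. Egr1 moved the other way, with 1.92 to 3.86 CPM after CNT-7 and 5.59 to 11.1 CPM after CNT-T (-1.86, adjusted p = 0.00209), and Ier2 (-0.10) and Ier3 (-0.17) were not called. The part of cell handling in the levels of Klf2, Klf4 and Bhlhe40 was not tested.

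BHLHE40 and BHLHE41 act as repressors in the circadian clock, of which 19 genes were listed and 16 tested. Of these 16, 2 were higher, 0 lower and 14 not called, against 13.9% higher and 14.0% lower over all tested genes. Lower clock genes also numbered 0 at an unadjusted p under 0.05 with edgeR, and 0 by DESeq2. The tested clock genes had a median log2 fold change of 0.068. Nfil3, a repressor of D-box genes that also acts in immune cells, had 62.5 ± 17.5 CPM in the CNT-7 group against 25.2 ± 2.43 CPM in the CNT-T group (log2 fold change 1.31, standard error 0.17, edgeR's adjusted p = 0.00108). Csnk1e, a kinase of the PER proteins, was the other (0.30, adjusted p = 0.0514), and its call was kept in 5 of the 8 fits that left out 1 rat. The activators Clock (-0.21) and Arntl (-0.0095) and the repressors Per1 (-0.45), Per2 (0.61) and Nr1d1 (1.19) were not called, with standard errors of 0.098, 0.094, 0.27, 0.34 and 0.59. The time of day at which the rats were killed is not given in the sources used here.

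**Figure D4:**
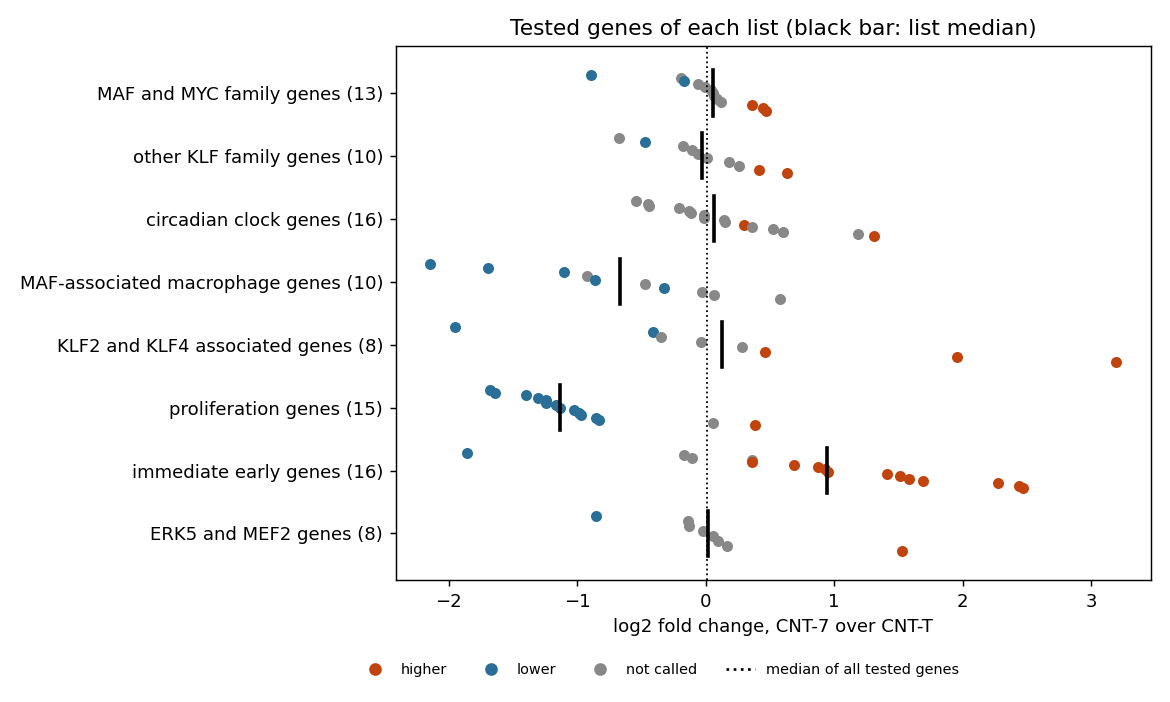
Log2 ratio of the CNT-7 to the CNT-T level (x axis) for each tested gene of the 8 lists (rows, number tested in parentheses), coloured by call, with the list's median as a black bar and the median of all tested genes as a dotted line. The proliferation and MAF-associated genes lie mostly to the left (medians of -1.13 and -0.67) and the immediate early genes mostly to the right (0.94). The lists were chosen with earlier results of these data known.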

How the data were processed

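The RNA-seq table covers macrophages of 4 rats given CNT-7 and 4 given CNT-T, with groups and rat numbers from the sample titles. The authors quantified the reads with Salmon (version not given in the sources used here) against the Ensembl cDNA sequences of Rnor_6.0 and imported the abundances through tximeta. Gene-level estimated counts, not normalized, are what the authors deposited. They were rounded to whole numbers before the tests, and transcript length offsets were not used. The totals were 27195157 to 33732981 counts per rat, at which 3 counts correspond to at most 0.109 CPM.

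Counts were tested in edgeR 4.0.16 (R 4.3.3) with TMM normalization, filterByExpr (minimum count 10, minimum total 15), the quasi-likelihood test and Benjamini-Hochberg adjustment, called under 0.10 as in the study's methods. Standard errors were derived from the fold change and the F statistic (|log2 fold change|/√F). The p-values weigh the difference between the groups against the spread between rats. Nothing beyond the rat numbers describes batches, so a batch that followed the groups could not be told apart from the particle. For distances between genes, a prior count of 2 was added before taking log2 CPM. The scripts were tested on simulated data.

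The 5 factors and the gene lists were chosen with earlier results of these data known. Named genes are the 5 factors, up to 4 called genes with the smallest adjusted p-values per list, all called MAF and MYC family genes, and the 3 nearest genes of each factor. Other genes of the lists were named after their values were seen. Alternatives were DESeq2 1.42.0, upper-quartile normalization, no filter, at least 10 counts in every rat, a threshold of 0.05, a term for low or high rat numbers, and each rat left out. Promoter windows are from RefSeq (GRCr8). Some genes of the lists are counted but not reported by name here.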

Additional observations from a re-analysis of the deposited data

Results flagged for a closer look

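Each of 96 groups of 4 rats, for the genes named, was examined for a single rat far from the rest by Dixon's criterion, which compares the distance to the nearest rat with the whole spread. This held in 5 groups, where 4.8 are expected by chance, and none of them concerned Bhlhe40, Bhlhe41, Maf, Klf2 or Klf4. For Mxd4, CNT-7 rat 11 was the lowest of its group at 132 CPM, while the others had 161 to 165 CPM (Dixon ratio 0.858). For the same gene, CNT-T rat 1 stood above its group at 139 CPM, while the others had 102 to 105 CPM (Dixon ratio 0.923), and the groups overlapped through these rats. For Nfil3, CNT-7 rat 10 had 88.5 CPM and the rest of its group 51.5 to 57.7 CPM (Dixon ratio 0.832). For Cd14, CNT-7 rat 5 had 245 CPM and the rest of its group 282 to 288 CPM (Dixon ratio 0.871). For Egr1, CNT-7 rat 10 had 3.86 CPM and the rest of its group 1.92 to 2.18 CPM (Dixon ratio 0.867).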

How the results depend on the processing

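Bhlhe40, Maf and Klf4 kept their direction and their call, and Klf2 its direction and lack of a call, under DESeq2, upper-quartile normalization, both other filters, the threshold of 0.05, the term for rat numbers and each rat left out. Leaving out 1 rat gave log2 fold changes of 0.43 to 0.58 for Bhlhe40, -0.52 to -0.34 for Maf, 0.42 to 0.54 for Klf4, 0.18 to 0.41 for Klf2 and -0.24 to 0.56 for Bhlhe41, which was negative without CNT-7 rat 10 (-0.24) or CNT-T rat 12 (-0.12). Over all genes, 2578 to 3515 were called in these fits, against 3383. Without a filter 1 MAF or MYC family gene was lower. At the threshold of 0.05, 0 of these genes were lower, 1 clock gene was higher and 0 proliferation genes were higher. With at least 10 counts in every rat, 0 ERK5 and MEF2 genes were higher, since Mef2b was no longer tested. With 1 rat left out, lower MAF and MYC family genes numbered 0 to 2 (0 without CNT-7 rat 3, 5 or 11 or CNT-T rat 1 or 2, and 1 without CNT-T rat 12), lower KLF family genes 1 to 2 (2 without CNT-7 rat 5), higher clock genes 1 to 4 (1 without CNT-7 rat 3 or 5 or CNT-T rat 12, and 4 without CNT-T rat 1) and lower clock genes 0 to 1 (1 without CNT-7 rat 3 or 11). Higher MAF-associated genes numbered 0 to 1 (1 without CNT-T rat 13), higher proliferation genes 0 to 1 (0 without CNT-7 rat 5 or CNT-T rat 2) and higher ERK5 and MEF2 genes 0 to 1 (0 without CNT-7 rat 3). The causes were not tested. No paired analysis was possible because the rats of both groups share no number. The median log2 fold change of all genes was 0.0083, and 0.0069 with upper-quartile normalization and 0.0038 with DESeq2. Depth limits Bhlhe41 and Mef2b, whose counts were at most 101 and 14 per rat.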
